A study of Mus musculus with 12 samples.

Results

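The miR-200 family of epithelial miRNAs was examined in small-RNA libraries from mouse hippocampus. Its members here were 7 mature strands taken by name from a table of 1908 mature miRNAs. They were mmu-miR-200a-3p, mmu-miR-200b-3p and mmu-miR-429-3p, the passenger strands mmu-miR-200a-5p and mmu-miR-200b-5p, and mmu-miR-200c-3p and mmu-miR-141-3p, written without the species prefix from here on. The strands were listed with earlier results of these libraries known, higher values in the knockout among them, so the genotype values below are a description and carry no test of the family.

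The 12 libraries came from the hippocampi of male C57BL/6 mice aged 3 months, littermates from matings of Gld2 heterozygotes, with 1 library per mouse. In 6 mice Gld2 was wild type (WT) and 6 were GLD2-/- (GLD2KO). Gld2 is an enzyme that lengthens RNA 3′ ends with adenosine, and the study asked what it does to hippocampal miRNAs. The labels state no treatment and no cell type in which the deletion is restricted. Libraries held between 2197915 and 2762035 counts in GLD2KO and between 2254812 and 3761106 in WT. The neuronal miR-124-3p and miR-9-5p, expected in this tissue, had WT means of 130905 and 52072 counts per 1000000 (CPM) and GLD2KO means of 98413 and 62499 CPM. Neither the added 3′ nucleotides nor the Gld2 transcript was analysed here, so genotypes rest on the labels.

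The miR-200 family is known for keeping cells in an epithelial state. Its members bind the transcripts of Zeb1 and Zeb2, a pair of transcription factors that repress E-cadherin, and Zeb1 and Zeb2 in turn repress the miR-200 genes. In the mouse nervous system the family is best known from olfactory epithelium, where it takes part in the differentiation of olfactory progenitors. A miRNA finds its targets mainly through its seed, bases 2 to 8 from its 5′ end, and the family falls into groups that differ in that stretch.

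The family is encoded by 5 hairpins in 2 clusters, all on the minus strand (GRCm38). On chromosome 4, Mir429 (156053905 to 156053987), Mir200a (156054896 to 156054985) and Mir200b (156055681 to 156055750) lie within 1846 bases, separated by 908 and 695 bases. All 3 are in an intron of Ttll10, which encodes a tubulin-modifying enzyme, on the same strand. They also lie within the non-coding gene Gm13648, where Mir429 overlaps an exon and the others are intronic. On chromosome 6, Mir141 (124717914 to 124717985) and Mir200c (124718322 to 124718390) lie within 477 bases, 336 bases apart, in an intron of the non-coding gene Gm15884 and between the coding genes Phb2 and Ptpn6.

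The mature strands show how the family is divided. RefSeq sequences on GRCm38.p6 matched all 7 listed strands, and each is given 5′ to 3′ with its seed in capitals. These 3 share the seed AAUACUG.
miR-200b-3p: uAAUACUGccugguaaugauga
miR-429-3p: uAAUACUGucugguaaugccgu
miR-200c-3p: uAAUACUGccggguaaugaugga
The next 2 share the seed AACACUG.
miR-200a-3p: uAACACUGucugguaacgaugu
miR-141-3p: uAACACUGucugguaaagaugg
The passenger strands of the 2 most abundant hairpins share the seed AUCUUAC with each other.
miR-200a-5p: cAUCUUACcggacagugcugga
miR-200b-5p: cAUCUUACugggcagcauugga

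The seeds of the main strands differ by a single base, C4U from miR-200a-3p to miR-200b-3p, counted from the 5′ end of the mature strand. No other mature mouse miRNA of the RefSeq table had any of these 3 seeds. The closest strands came from different chromosomes: miR-200a-3p and miR-141-3p differed at 2 of 22 bases (C17A, U22G), and miR-200b-3p and miR-200c-3p at 2 of 22 (U11G, A22G). How reads with mismatches, or with added 3′ bases, were assigned is not given in the sources used here, so the small counts of miR-141-3p and miR-200c-3p are uncertain as single values.

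The hairpins of the 2 most abundant members are shown to place the strands, with the 3p strand in capitals.
Mir200a: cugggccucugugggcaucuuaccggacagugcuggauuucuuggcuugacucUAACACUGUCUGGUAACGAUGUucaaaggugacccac
Mir200b: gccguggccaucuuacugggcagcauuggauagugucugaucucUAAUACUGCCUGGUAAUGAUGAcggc

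The family was rare in hippocampus, and nearly all of it was 3p strands from chromosome 4. The 7 strands took 4978 counts over the 12 libraries, between 0.00434% and 0.0306% of a library's counts. Of these, miR-200a-3p held 46.9%, miR-200b-3p 33.6% and miR-429-3p 17.8%. By mean CPM they stood at ranks 247, 275 and 329 of the 1325 miRNAs with a count. Mature strands are of nearly equal length, so no length scaling was applied, but ligation and size selection can favour some strands over others.

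The strands from chromosome 6 were close to the limit of detection. For miR-200c-3p, the counterpart of miR-200b-3p with the same seed, there were 3 to 10 counts in each library, 53 in all. The counterpart of miR-200a-3p, miR-141-3p, had 10 counts in all, in 7 of the 12 libraries. The chromosome 4 strands had 78.0 counts for each count from chromosome 6, and between 19.8 and 190.5 in single libraries. Both clusters were thus counted in every library, at levels far apart.

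The 3p strand made up almost all counts of its hairpin. For miR-200a, 2336 of 2343 counts were 3p, a share of 99.7% (95% exact binomial interval 99.4 to 99.9%), and by library 99.56 ± 0.682% (WT) and 99.87 ± 0.217% (GLD2KO; SD, n = 6 each). For miR-200b, 1671 of 1684 were 3p, a share of 99.2% (interval 98.7 to 99.6%), with 99.24 ± 0.838% in WT and 98.9 ± 2.11% in GLD2KO. The lowest share, 94.6%, was that of miR-200b in GLD2KO replicate 4, where 5 counts were 5p and 88 were 3p. The genotype difference in this share was smaller than both SDs for miR-200b, and for miR-200a it was smaller than the WT SD and larger than the GLD2KO SD.

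The passenger strands outside the 7 were at or near 0. Neither miR-429-5p nor miR-200c-5p had a count in any library, which allows up to 0.0876 CPM over the 12 libraries together (3 counts). There were 2 counts of miR-141-5p. Intervals and limits of this kind cover counting error only.

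**Figure D1:**
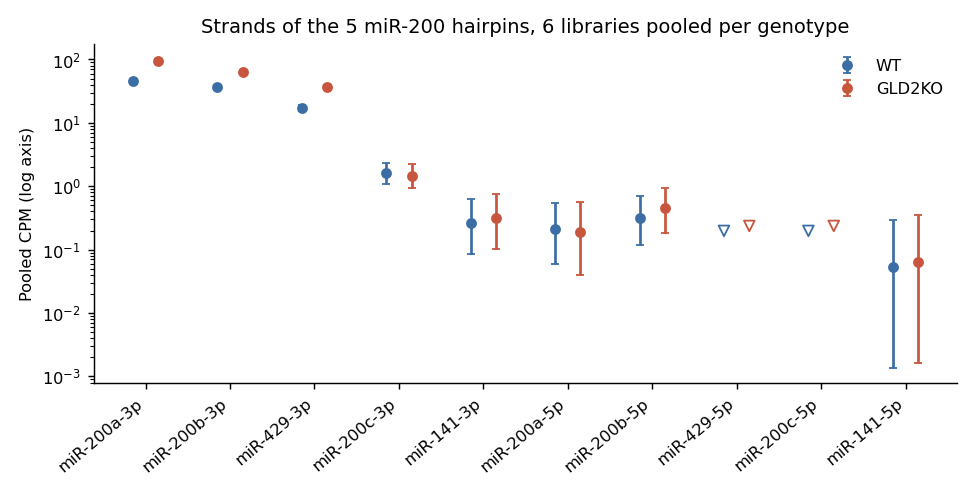
Pooled CPM (log axis) of the 10 strands of the 5 hairpins in 6 WT and 6 GLD2KO libraries, with 95% Poisson intervals for counting error only; open triangles mark the upper bound for strands without a count. The chromosome 4 strands miR-200a-3p, miR-200b-3p and miR-429-3p stand at 16.98 to 95.2 CPM, and every other strand is under 2 CPM.

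The summed family level was higher on average in GLD2KO, with a wide spread between mice. In WT the 7 strands together ranged from 39.6 through a median of 103.6 to 184.3 CPM, and in GLD2KO from 88.2 through 208.7 to 374.5 CPM. The WT mean was 107 ± 48.8 CPM and the GLD2KO mean 214 ± 107 CPM (SD, n = 6 each), a ratio of 1.995. In 4 of the 6 GLD2KO libraries the sum was above every WT library, and GLD2KO replicates 3 and 6 lay inside the WT range. In bulk tissue, more cells that express the family and more of it per cell cannot be told apart.

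The most abundant member, miR-200a-3p, ranged from 22.2 through a median of 47.1 to 87.7 CPM in WT. In GLD2KO it ranged from 37.3 through 85.5 to 195 CPM. The highest values were in GLD2KO replicates 1 and 4, at 195 and 181 CPM, and the groups overlapped, with 3 GLD2KO libraries above all WT libraries. The means were 49.1 ± 23.0 and 104.8 ± 67.7 CPM (SD, n = 6 each).

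For miR-200b-3p the WT libraries ran from 9.18 through a median of 34.5 to 67.1 CPM. The GLD2KO libraries ran from 33.1 through 58.7 to 119 CPM. The groups overlapped more than for miR-200a-3p, with GLD2KO replicates 1 and 5 above all WT libraries. The means were 37.6 ± 20.02 and 67.2 ± 32.8 CPM.

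The third abundant member, miR-429-3p, ran from 6.33 through a median of 17.5 to 26.6 CPM in WT. In GLD2KO it ran from 15.7 through 43.0 to 59.8 CPM. Here 4 of 6 GLD2KO libraries were above all WT libraries, and replicates 3 and 6 were again inside the WT range. The means were 17.9 ± 7.51 and 39.5 ± 20.4 CPM.

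**Figure D2:**
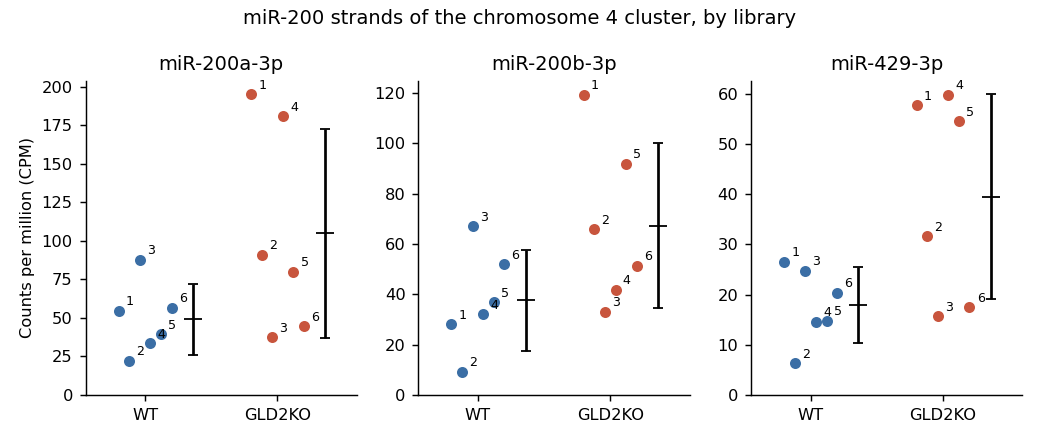
CPM of miR-200a-3p, miR-200b-3p and miR-429-3p in each library, numbered by replicate, with the mean and SD of 6 libraries beside each genotype. GLD2KO replicate 1 is high in all 3 panels, replicate 4 is high for miR-200a-3p and miR-429-3p but at 41.8 CPM for miR-200b-3p, and GLD2KO replicates 3 and 6 lie among the WT libraries throughout.

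Of the 7 members, 3 had enough counts to enter edgeR's fit over 521 miRNAs. Their log2 fold changes, GLD2KO minus WT, were 1.10 for miR-200a-3p (SE 0.48, 95% confidence interval 0.10 to 2.09), 0.84 for miR-200b-3p (SE 0.46, interval -0.13 to 1.81) and 1.14 for miR-429-3p (SE 0.46, interval 0.18 to 2.10). As ratios the intervals ran from 1.07 to 4.26, from 0.914 to 3.51 and from 1.14 to 4.29. The median over all 521 tested miRNAs was 0.12, and 306 of them (58.7%) were above 0.

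None of the 3 passed an adjusted p of 0.05 in edgeR with Benjamini-Hochberg adjustment, and neither did any other tested miRNA (0 of 521, 0%; lowest adjusted p 0.815). DESeq2 called 0 of 1317 and limma-voom 0 of 521, and edgeR without its filter on low counts 7 of 1325 (0.528%), none of them a family strand. Before adjustment, 25 of the 521 miRNAs (4.80%) had p under 0.05 in edgeR, 45 in DESeq2 and 23 in limma-voom. The unadjusted intervals of miR-200a-3p and miR-429-3p are among those 25 that leave out 0; as the family was chosen from this contrast, nothing is read from that count. The groups did not overlap for 3 of the 521 miRNAs (0.576%), and no family strand was among them.

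The direction of each fold change stayed positive in all 18 other fits, and in none did the 3 strands pass. Without GLD2KO replicate 1, the library with the highest family sum, the values were 0.78 for miR-200a-3p, 0.58 for miR-200b-3p and 0.98 for miR-429-3p.

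The 4 members left out of the fit gave too few counts for a fold change per mouse. Summed over libraries, miR-200c-3p had 30 counts in WT and 23 in GLD2KO, or 1.61 CPM (95% Poisson interval 1.08 to 2.29) and 1.48 CPM (interval 0.935 to 2.21). The ratio of these rates, GLD2KO over WT, was 0.918, with a counting interval of 0.509 to 1.63. For miR-141-3p there were 5 counts in each genotype, for miR-200a-5p 4 in WT and 3 in GLD2KO, and for miR-200b-5p 6 and 7.

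As ratios of means, GLD2KO over WT, the chromosome 4 strands were at 2.02 and the chromosome 6 strands at 0.87. These ratios were not tested against each other. The chromosome 4 strands were at 105 ± 48.7 CPM (WT) and 212 ± 107 CPM (GLD2KO; SD, n = 6 each). The chromosome 6 strands were at 2.09 ± 1.33 and 1.82 ± 0.660 CPM, with 35 and 28 counts in all. From pooled counts the chromosome 6 ratio was 0.958. Its interval of 0.561 to 1.62 covers counting error only, not the spread between mice.

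By seed, both groups were higher on average in GLD2KO. Strands with AAUACUG were at 57.2 ± 25.6 CPM (WT) and 108 ± 47.6 CPM (GLD2KO), and those with AACACUG at 49.4 ± 23.1 and 105 ± 67.9 CPM (SD, n = 6 each). In each seed group the chromosome 4 strands supplied almost all counts. The genotype means differed by about as much as the SD between GLD2KO libraries, and the genotypes overlapped.

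Other miRNAs of epithelia were taken as a list of strands known from skin, gut, kidney, sensory and endocrine epithelia. The list held 23 strands, of which 6 had no count and 7 were tested; in GLD2KO 4 of these were higher and 3 lower, and their median log2 fold change was 0.03, with 0 past the threshold. The most abundant were miR-192-5p, a miRNA of gut, liver and kidney, at 136 ± 23.4 CPM (WT) and 133 ± 56.0 CPM (GLD2KO), and miR-31-5p, found in skin and other epithelia, at 96.7 ± 98.0 and 172 ± 55.3 CPM. Their log2 fold changes were -0.04 (SE 0.37) and 0.83 (SE 0.49). Over all 17 strands of the list with a count, a setting chosen after seeing the data, 11 were higher in GLD2KO and the median was 0.49 in DESeq2 and 0.48 in edgeR with no filter on low counts. Summed, the list was at 339 ± 81.6 CPM (WT) and 428 ± 105 CPM (GLD2KO; SD, n = 6 each), and 5 of 6 GLD2KO libraries were above the WT median. With 1 library left out, 8 to 10 strands passed the filter on low counts, and the median ran from -0.02 over 8 strands (without WT replicate 5 or WT replicate 6) to 0.55 over 10 strands (without WT replicate 1). It was also over 10 strands without WT replicate 4 (0.52), GLD2KO replicate 1 (0.51) and GLD2KO replicate 2 (0.46), so these medians are not over the same strands as the 0.03.

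Markers of choroid plexus and ciliated cells, other epithelial cells of the brain, were highest in a library with a low family sum for its genotype, and next highest in a library with a high one. In GLD2KO replicate 6 the 13 choroid plexus and cilia strands summed to 22438 CPM, where the remaining GLD2KO libraries had 1649 to 8763 CPM, and the 10 strands of Htr2c introns to 2019 CPM, where they had 58.3 to 123 CPM. The family sum of that library was 115.5 CPM, the second lowest of GLD2KO. GLD2KO replicate 4 had the second highest choroid plexus and cilia sum of the 12 libraries, 8763 CPM, and the second highest family sum, 288.5 CPM. GLD2KO replicate 1 had the lowest choroid plexus and cilia sum of the 12, 1649 CPM, and the highest family sum, 374.5 CPM. The part of these cells in the family's values was not tested. Without GLD2KO replicate 6 the difference in the family sum between genotypes was 124 CPM, against 107 CPM with all libraries. Over all libraries, 6 of 8 tested choroid plexus and cilia strands were higher in GLD2KO (median log2 fold change 0.60), as were 7 of 7 of Htr2c introns (0.75). None passed, and without GLD2KO replicate 6 these medians were -0.08 and -0.32. With all libraries they were 0.22 and 0.47 in limma-voom, and 0.21 and 0.42 in edgeR with the replicate number as a block.

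Named from these lists as most abundant, miR-204-5p, a choroid plexus miRNA, was at 3113 ± 1152 CPM (WT) and 4973 ± 4796 CPM (GLD2KO). The level of miR-34c-5p, known from cells with cilia, was 555 ± 498 and 1533 ± 2289 CPM. From Htr2c introns, miR-1298-5p was at 45.8 ± 17.9 and 334 ± 703 CPM and miR-1298-3p at 12.9 ± 2.69 and 18.4 ± 9.10 CPM. For each of these the SD in GLD2KO exceeded that in WT, and GLD2KO replicate 6 held the highest value of the 12 libraries.

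The red blood cell miR-451a was highest in the libraries of each genotype where the family was lowest. The 5 blood strands, nearly all of their counts from miR-451a, summed to 23167 CPM in WT replicate 2, which had the lowest family sum of WT at 39.6 CPM. They summed to 24473 CPM in GLD2KO replicate 3, which had the lowest of GLD2KO at 88.2 CPM. In the other WT libraries the blood sum lay between 774 and 8916 CPM, and in the other GLD2KO libraries between 1438 and 12652 CPM. The other named blood strand, miR-486-5p, did not follow this order: it was at 189 CPM in WT replicate 2, at 162 CPM in GLD2KO replicate 3, its lowest GLD2KO value, and at 569 CPM in GLD2KO replicate 1, its highest value of the 12 libraries, where the family sum was also highest at 374.5 CPM. The part that blood plays in the family's values was not tested.

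Between genotypes the blood list had 5 of 5 strands higher in GLD2KO, at a median log2 fold change of 0.39, with 0 past the threshold, and 0.75 without WT replicate 1. Its miR-451a was at 7909 ± 7815 CPM (WT) and 8849 ± 8564 CPM (GLD2KO), and miR-486-5p at 208 ± 82.0 and 304 ± 139 CPM. The neuronal list, led by miR-124-3p and miR-9-5p, had 4 of 6 strands higher and a median of 0.14, with 0 past the threshold. That median was -0.21 without GLD2KO replicate 1. In limma-voom and in edgeR with the replicate number as a block, 4 of 5 blood strands were higher, at medians of 0.53 and 0.54. In the same fits the neuronal list had 3 of 6 strands higher, at medians of -0.05 and -0.04.

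**Figure D3:**
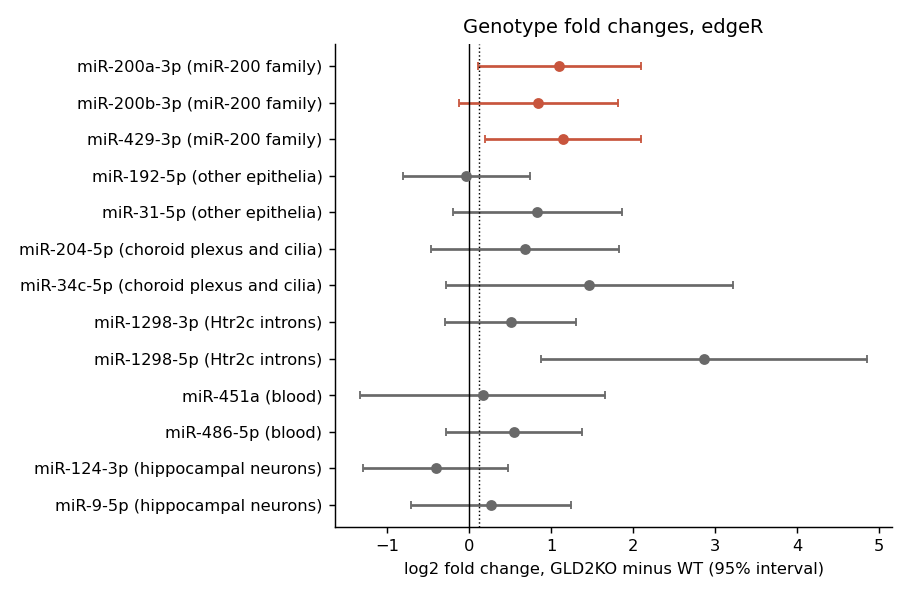
Log2 fold changes, GLD2KO minus WT, from edgeR with 95% confidence intervals for the 3 tested miR-200 strands and the 2 most abundant strands of each marker list (12 libraries); the dotted line is the median of all 521 tested miRNAs, 0.12. The 3 family strands lie between 0.84 and 1.14, and no miRNA shown passed the adjusted threshold.

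The make-up of the chromosome 4 cluster differed between mice more than between genotypes. As a share of the 3 abundant strands, miR-200a-3p was at 47.8 ± 6.30% in WT and 47.1 ± 10.3% in GLD2KO, miR-200b-3p at 34.7 ± 7.57% and 34.4 ± 10.6%, and miR-429-3p at 17.5 ± 3.61% and 18.5 ± 3.46% (SD, n = 6 each). All 3 differences between genotypes were smaller than these SDs. The strands are thus in nearly the same mean proportion in both genotypes.

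The lowest and highest shares among the libraries of a genotype are given here with intervals that cover counting error only, not the spread between mice. In GLD2KO the lowest share of miR-200b-3p was 14.8% in GLD2KO replicate 4 (88 of 595 counts, 95% exact binomial interval 12.03 to 17.9%) and the highest 45.4% in GLD2KO replicate 6 (118 of 260, interval 39.2 to 51.7%). In WT it ran from 24.4% in replicate 2 (interval 16.97 to 33.1%) to 40.5% in replicate 5 (interval 35.2 to 45.8%). The count ratio of miR-200a-3p to miR-200b-3p was between 0.864 and 2.41 in 11 libraries and 4.33 in GLD2KO replicate 4.

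**Figure D4:**
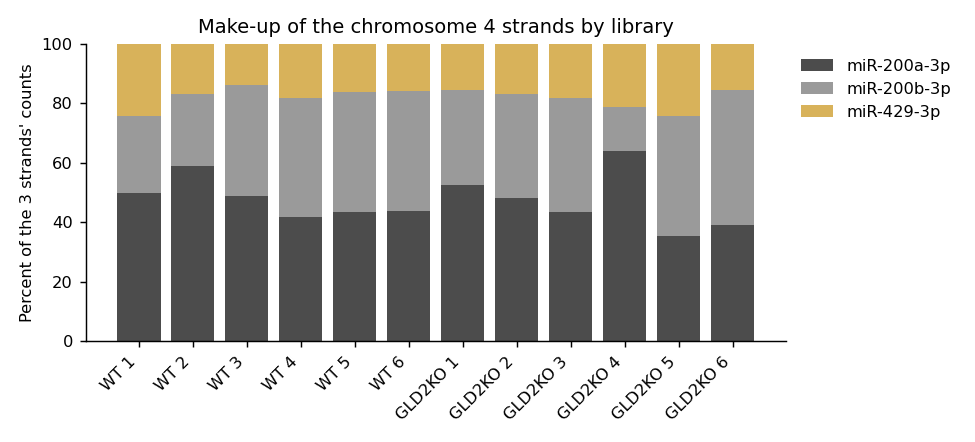
Share of miR-200a-3p, miR-200b-3p and miR-429-3p in the summed counts of these 3 strands, in percent, for each library. The share of miR-429-3p stays between 13.8% and 24.3%, whereas that of miR-200b-3p runs from 14.8% in GLD2KO replicate 4 to 45.4% in GLD2KO replicate 6.

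Whether strands of the cluster varied together between mice was tested for all 3 pairs over 12 libraries on log2 CPM. A correlation over all 12 includes any shift between genotypes that strands share, and the strands were listed with that shift known, so it is given beside the one in which each strand is its deviation from the genotype mean. As deviations, r was 0.90 for miR-200a-3p and miR-429-3p, 0.65 for miR-200a-3p and miR-200b-3p and 0.71 for miR-200b-3p and miR-429-3p, and all 3 passed (permutation, adjusted p = 0.00048, 0.0192 and 0.0184). Over all 12 libraries the closest pair was miR-200a-3p and miR-429-3p, with Pearson's r = 0.93 (two-sided permutation test, adjusted p = 0.00012 over 3 pairs, unadjusted p = 4.0e-05) and Spearman's rho = 0.94 (permutation, adjusted p = 6.0e-05, unadjusted p = 2.0e-05, the smallest these permutations can give). Within genotypes r was 0.91 in WT and 0.90 in GLD2KO (n = 6 each). It was 0.89 over the 10 libraries left without GLD2KO replicates 1 and 4, the farthest from the median of miR-200a-3p. These strands carry different seeds.

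For miR-200a-3p and miR-200b-3p, r was 0.75 (permutation, adjusted p = 0.00386, unadjusted p = 0.00338) and rho 0.79 (permutation, adjusted p = 0.00468, unadjusted p = 0.00312). Within genotypes r was 0.88 in WT and 0.52 in GLD2KO. It was 0.87 over the 10 libraries without GLD2KO replicates 1 and 4, and 0.89 without GLD2KO replicate 4 alone, the library where the count ratio of these strands was 4.33.

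For miR-200b-3p and miR-429-3p, which share a seed, r was 0.79 (permutation, adjusted and unadjusted p = 0.00386) and rho 0.66 (permutation, adjusted and unadjusted p = 0.0230). Within genotypes r was 0.83 in WT and 0.62 in GLD2KO. Without WT replicate 2 and GLD2KO replicate 1, the farthest from the median of miR-200b-3p, r was 0.51 (permutation p = 0.143, 10 libraries). The relation then no longer passed. Whether it passed thus depended on that pair of libraries, though leaving out the farthest libraries also narrows the range. The change in r was not tested. It passed without either alone, at r = 0.65 without WT replicate 2 (permutation, adjusted p = 0.0374) and 0.74 without GLD2KO replicate 1 (permutation, adjusted p = 0.0182), and r was 0.90 without GLD2KO replicate 4. The libraries left out together were set by miR-200b-3p alone. For miR-429-3p the lowest value was in WT replicate 2 (6.33 CPM) and the highest in GLD2KO replicate 4 (59.8 CPM). Leaving out both of those was not run. No test was made of whether 1 pair's correlation differs from another's.

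**Figure D5:**
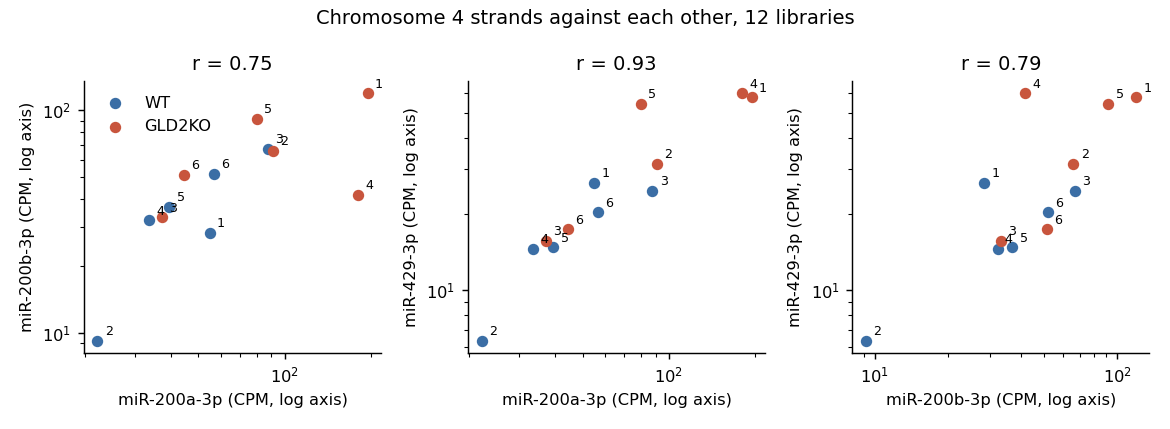
CPM (log axes) of each pair of chromosome 4 strands in 12 libraries, numbered by replicate, with Pearson's r of log2 CPM above each panel. The points of miR-200a-3p and miR-429-3p lie closest to a line (r = 0.93), and GLD2KO replicate 4 stands away from the others where miR-200b-3p is on an axis.

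The miRNAs whose levels ran most like the summed family were ranked by Pearson's r of log2 CPM over the 12 libraries, among 427 tested miRNAs outside the family with a mean of at least 10 CPM. These values describe the libraries, which share depth and scaling, and the median over the 427 was 0.00. The highest was miR-1198-5p at r = 0.87, with 68.2 ± 19.4 CPM (WT) and 95.3 ± 42.6 CPM (GLD2KO), and r = 0.79 and 0.91 within these genotypes. Next came miR-378d at 0.79, miR-93-5p at 0.79, miR-378a-3p at 0.78 and miR-1843a-3p at 0.78. These r over all 12 libraries include any genotype shift shared with the family. The 5 were also picked as the highest of 427 in these same libraries, so their r, within genotypes too, carry no test. Within WT and GLD2KO, r was 0.85 and 0.76 for miR-378d and 0.50 and 0.92 for miR-93-5p. It was 0.86 and 0.59 for miR-378a-3p and 0.77 and 0.90 for miR-1843a-3p. Among these miRNAs miR-93-5p, from a paralog of the miR-17-92 cluster, was at 259 ± 157 CPM (WT) and 515 ± 263 CPM (GLD2KO). The near-identical miR-378a-3p and miR-378d may share reads and are uncertain as single values.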

How the data were processed

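Small RNAs of a gel-cut size fraction from 12 hippocampi were sequenced on an Illumina instrument, per the labels' protocols; the sources differ on the lower bound of that fraction. Trimmomatic 0.32, cutadapt 1.3 and GRCm38 stand in the submitters' processing notes; the aligner, the counter and how shared reads were handled were not given in the sources. The deposited table holds raw whole-number counts per mature miRNA, not normalized by the authors. The 1 row naming no miRNA held 0 counts and was left out.

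Columns were matched to samples by title. The test was edgeR's (4.0.16, in R 4.3.3; filterByExpr, TMM, glmQLFit, glmQLFTest), run over all 12 libraries, with Benjamini-Hochberg adjustment over 521 miRNAs. CPM used TMM-scaled library sizes, and log2 CPM a prior count of 2. Correlations used 100000 permutations (scipy 1.17.1). The fit was also run on simulated counts, and the outcome of that run is not given here. Alternatives were DESeq2 1.42.0, limma 3.58.1 (voom), other scalings, no filter, a replicate block, another prior count and leaving out each library.

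The members and marker lists were chosen with earlier results of these data known. Named miRNAs are the family's strands, the 2 most abundant tested strands of each list and the 5 most like the family sum. No batch is given in the labels. Depth is the range of total counts in the report.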

Additional observations from a re-analysis of the deposited data

Results flagged for a closer look

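A single library stood far from its 5 companions in 11 of 62 sets of 6 libraries. By chance about 1 in 20, or 3.1, would do so if the sets were independent and the values normally distributed. The sets share libraries, and list sums include strands that are also sets of their own, so no excess is read from these counts. Within the family, the count ratio of miR-200a-3p to miR-200b-3p was 4.33 in GLD2KO replicate 4, against 0.864 to 1.64 in the other GLD2KO libraries.

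The others were in the marker lists. In GLD2KO replicate 6 the choroid plexus and cilia strands summed to 22438 CPM and the Htr2c intron strands to 2019 CPM. In the same library miR-34c-5p stood at 5982 CPM (135 to 2028 CPM in the rest of GLD2KO), miR-1298-5p at 1767 CPM (18.1 to 83.0) and miR-1298-3p at 36.2 CPM (11.5 to 19.1). In WT replicate 2 the strands of other epithelia summed to 500.1 CPM (275.7 to 331 CPM in the other WT libraries), with miR-31-5p at 293 CPM (40.04 to 87.1). Blood strands there summed to 23167 CPM, with miR-451a at 22861 CPM (615 to 8371). In GLD2KO replicate 1, miR-486-5p stood at 569 CPM (162 to 303).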

How the results depend on the processing

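The count of miRNAs past the threshold was 0 in every alternative run except with no low-count filter, where it was 7 of 1325 and none was a family strand; the cause was not tested. For the 3 tested strands all 18 alternatives kept the sign, with log2 fold changes of 0.78 to 1.39 for miR-200a-3p, 0.58 to 1.14 for miR-200b-3p and 0.95 to 1.3 for miR-429-3p when 1 library was left out. The difference in the family sum, 106.8 CPM, ran from 72.4 (without GLD2KO replicate 1) to 130.5 CPM (without WT replicate 3), and from 101.2 to 109.9 CPM under other scalings. With 1 library left out the correlations ran from 0.66 to 0.89 for miR-200a-3p and miR-200b-3p, 0.91 to 0.97 for miR-200a-3p and miR-429-3p and 0.65 to 0.90 for miR-200b-3p and miR-429-3p, and under the other alternatives from 0.65 to 0.75, 0.90 to 0.93 and 0.71 to 0.80. All stayed past the threshold in these. That of miR-200b-3p and miR-429-3p did not without both WT replicate 2 and GLD2KO replicate 1 (r = 0.51, permutation p = 0.143). Those were the farthest from the median of miR-200b-3p, and leaving out libraries by miR-429-3p was not run.

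With 1 library left out, list medians ran from -0.0235 to 0.55 for other epithelia (over 8 to 10 strands, where all libraries gave 7), -0.32 to 0.998 for Htr2c introns, -0.08 to 0.83 for choroid plexus and cilia, 0.25 to 0.75 for blood and -0.21 to 0.25 for neurons. Replicate numbers did not pair the samples: same-numbered libraries had correlations of deviations from -0.23 to 0.24, 2 of 6 over 0.1, and 2 of 12 libraries correlated best with their own number. With the replicate number as a block, 0 miRNAs passed and the fold changes were 1.0, 0.92 and 1.10. Depth limits miR-200c-3p, miR-141-3p and the 5p strands.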

Other observations

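Strands of the miR-183, miR-96 and miR-182 cluster, known from sensory epithelia, were part of the list of other epithelia but had too few counts for the fit, and are named here after their values were seen. The level of miR-183-5p was 2.40 ± 1.52 CPM (WT) and 8.20 ± 7.54 CPM (GLD2KO), that of miR-182-5p 2.83 ± 1.22 and 4.75 ± 4.12 CPM, and that of miR-96-5p 0.373 ± 0.390 and 1.02 ± 0.971 CPM (SD, n = 6 each). They had 161, 125 and 23 counts in all, and the genotype differences were not tested. The genotypes overlapped: miR-183-5p ran from 0.573 to 4.71 CPM in WT and from 2.67 through a median of 3.92 to 18.7 CPM in GLD2KO. For miR-182-5p the ranges were 1.43 to 4.65 CPM and 0.489 to 10.3 CPM. Other strands of the list left out of the fit went both ways. On average miR-203-5p, miR-194-2-3p and miR-215-5p were lower in GLD2KO, and miR-375-3p and miR-192-3p higher.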
